A study of Mus musculus with 21 samples.

Results

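Gene expression in the injured brain hemisphere of mice treated with CR2-Crry was set against that of sham mice on day 7 after a controlled cortical impact, a mechanical model of traumatic brain injury (TBI). The comparison used 6 of the 21 mouse brains of the series, 3 in each group, chosen by their labels alone. Male C57BL6J mice of 13 weeks received an impact and, 1 h later, a single intravenous dose of 16 mg/kg CR2-Crry. The 3 sham mice were also male C57BL6J, were labelled as vehicle (PBS), and were 12, 13 and 16 weeks old. They had anaesthesia and a scalp incision only. The other groups used here were PBS-treated injured mice of 13 weeks on day 7, which received the vehicle in place of the drug, CR2-Crry-treated injured mice of 12 weeks on day 3, and CR2-Crry-treated injured mice of 16 weeks on day 28, which had 3 further doses. Each of these groups held 3 mice. No sham mouse received CR2-Crry, so effects of the injury, of the surgery and of the drug on an uninjured brain cannot be told apart in the difference from sham.

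CR2-Crry is a fusion protein. Its CR2 fragment binds complement C3 activation products that are fixed on cell surfaces, and its Crry part is a mouse inhibitor of the enzyme complexes that activate C3. Complement is a cascade of plasma and tissue proteins in which C1q recognises its targets, C4 and C3 are cleaved and deposited, and the released C3a and C5a fragments act on receptors of myeloid cells. In the brain, C1q is made mainly by microglia, the resident macrophages, and C3 activation products serve as tags for phagocytosis by cells that carry complement receptor 3. CR2-Crry acts on the protein cascade, whereas the assay measured RNA.

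The RNA was measured with the NanoString Neuroinflammation panel, which counts single hybridised probe molecules without amplification, and the values are counts normalised to housekeeping genes. Of 757 probes, 740 had a value over 20 in at least 3 of the 21 samples and were tested, and 687 of these had a gene symbol. The depth recovered from the step between values was 750585 to 1023041 counts per sample over the whole series. Over all tested probes the CR2-Crry day 7 samples correlated with each other at 0.994 to 0.996 and the sham samples at 0.988 to 0.995, across genes and on the log2 scale. On the first principal component, which held 66.7% of the variance, CR2-Crry day 7 mice lay at 3.03 to 4.68, PBS day 7 mice at 8.23 to 11.9 and sham mice at -23.2 to -21.0. As a check of the tissue, the summed level of 9 homeostatic astrocyte markers was 27690.0 to 28510.0 normalised counts in CR2-Crry day 7 mice and 18490.0 to 19290.0 in sham mice, that of 11 myelin genes 23330.0 to 24920.0 and 14240.0 to 17720.0, and neuronal and microglial markers were likewise present in every sample.

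Of the 740 probes, 431 (58.2%) differed between CR2-Crry TBI day 7 and sham at a limma adjusted p under 0.05, of which 355 (48%) were higher after injury with treatment and 76 (10.3%) were lower. These shares of 48% and 10.3% are the background for all list counts against sham below. More than 2-fold differences were nearly all upward, with 146 higher and 5 lower. The samples of both groups did not overlap for 472 probes (63.8%). The median log2 change over all tested probes was 0.24, and 82.4% of the called probes were higher. This split depends on the scaling, because the median value of a sample was 364 to 370 in CR2-Crry day 7 mice and 242 to 257 in sham mice. When each sample was centred on its own median, which subtracts 0.56 from every log2 change, 557 probes were called, 172 higher and 385 lower, so that 30.9% of the calls were upward. All of these 172 were also called higher before centring and all 76 lower calls were kept, while 68 probes were called in opposite directions. Small increases, below about 0.56 on the log2 scale, are therefore relative to the housekeeping genes only.

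**Figure D1:**
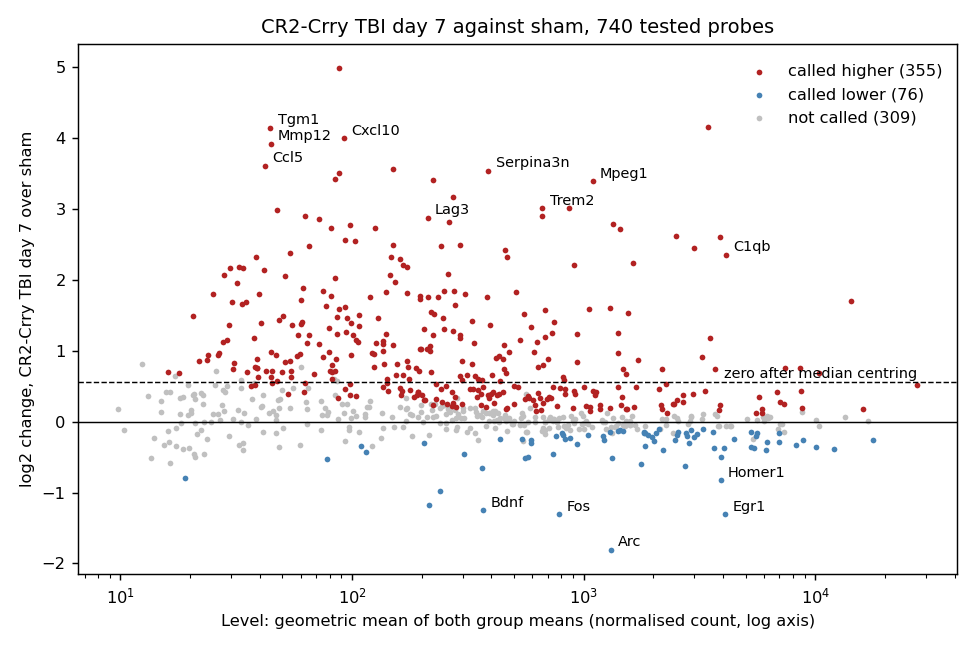
Log2 change of CR2-Crry TBI day 7 over sham (vertical axis) against the level of each of the 740 tested probes (horizontal log axis, geometric mean of both group means in normalised counts), with called probes coloured. The upward changes reach a log2 of 4.99 and the downward ones -1.81, and the dashed line marks where zero lies after each sample is centred on its median.

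The largest increases belonged to genes of reactive astrocytes and myeloid cells and to chemokines. Tgm1, a transglutaminase that cross-links proteins and a marker of one type of reactive astrocyte, had 166, 154 and 246 normalised counts in CR2-Crry mice and 11.8, 8.74 and 10.9 in sham mice. All 3 treated mice lay more than 10-fold above every sham mouse, and the log2 change was 4.15 (SE 0.27, limma adjusted p = 1.14e-10). Its sham values lay under 20, the level used for the filter, where the counts of all probes are small.

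Cxcl10, an interferon-induced chemokine that attracts activated T cells, had 413, 328 and 365 normalised counts in CR2-Crry mice against 23.6, 23.6 and 21.8 in sham mice, a log2 change of 3.997 (SE 0.22, limma adjusted p = 1.18e-11). Serpina3n, a serine protease inhibitor that is prominent in reactive astrocytes, had 1105, 1330.2 and 1504 against 90.4, 105 and 149, a log2 change of 3.54 (SE 0.21, limma adjusted p = 4.26e-11). Mpeg1, a pore-forming protein of macrophages and microglia, had 3371, 3384 and 3868 normalised counts in CR2-Crry mice against 365, 310.3 and 337 in sham mice. The groups were far apart for all of these genes, and the spread within each group was under 2-fold.

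The other genes among the 15 largest increases were Mmp12, a macrophage elastase (log2 change 3.92), Ccl5 (3.61), Ccl3 (3.50) and Ccl2 (2.90), which are chemokines for T cells and monocytes, Lilrb4a, an inhibitory receptor of myeloid cells (3.57), Bcl2a1a, an anti-apoptotic member of the BCL2 family (3.41), C3ar1 (3.18), C4a (3.02), Trem2 (3.01), the bacterial lipoprotein receptor Tlr2 (2.98) and Lag3, an inhibitory receptor known from T cells (2.87). The 15 were ranked among called genes with a symbol whose groups did not overlap. Non-overlap was thus a condition for naming them, as it was for the largest decreases below. The sham means of Mmp12 (11.3), Ccl5 (12.1) and Tlr2 (16.9) also lay under 20, so the size of these changes rests on small counts. Bcl2a1a, C4a and Lilrb4a each have a near-identical gene copy in the mouse, and which copy a probe counted was not tested. Probes without a gene symbol in the annotation also ranked among the highest, with log2 changes of 4.99 (probe_148), 4.15 (probe_652) and 3.43 (probe_76).

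The largest decreases belonged to genes that neuronal activity induces. Arc, which acts at active synapses, had 647, 569 and 907 normalised counts in CR2-Crry mice against 2583, 2136 and 2612 in sham mice. Every treated mouse lay below every sham mouse by more than 2-fold, and the log2 change was -1.81 (SE 0.28, limma adjusted p = 1.75e-05). Fos and Egr1 came next (log2 change -1.31 each), and then Bdnf, a neurotrophin, with 224, 227 and 266 normalised counts in CR2-Crry mice against 587, 576 and 539 in sham mice, a log2 change of -1.25 (SE 0.11, limma adjusted p = 1.12e-08). Tnfrsf25, a TNF receptor family member, had a log2 change of -1.18, the prostaglandin-forming enzyme Ptgs2 -0.98, the postsynaptic scaffold gene Homer1 -0.83, Lingo1, an inhibitor of axon growth and myelination, -0.63, and Cx3cl1, the neuronal ligand of the microglial receptor Cx3cr1, -0.60. Il1r2, the decoy receptor of interleukin-1, was also called lower (log2 change -0.80), at 11.7 to 16.0 normalised counts in CR2-Crry mice and 23.6 to 26.8 in sham mice, near the filter.

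**Figure D2:**
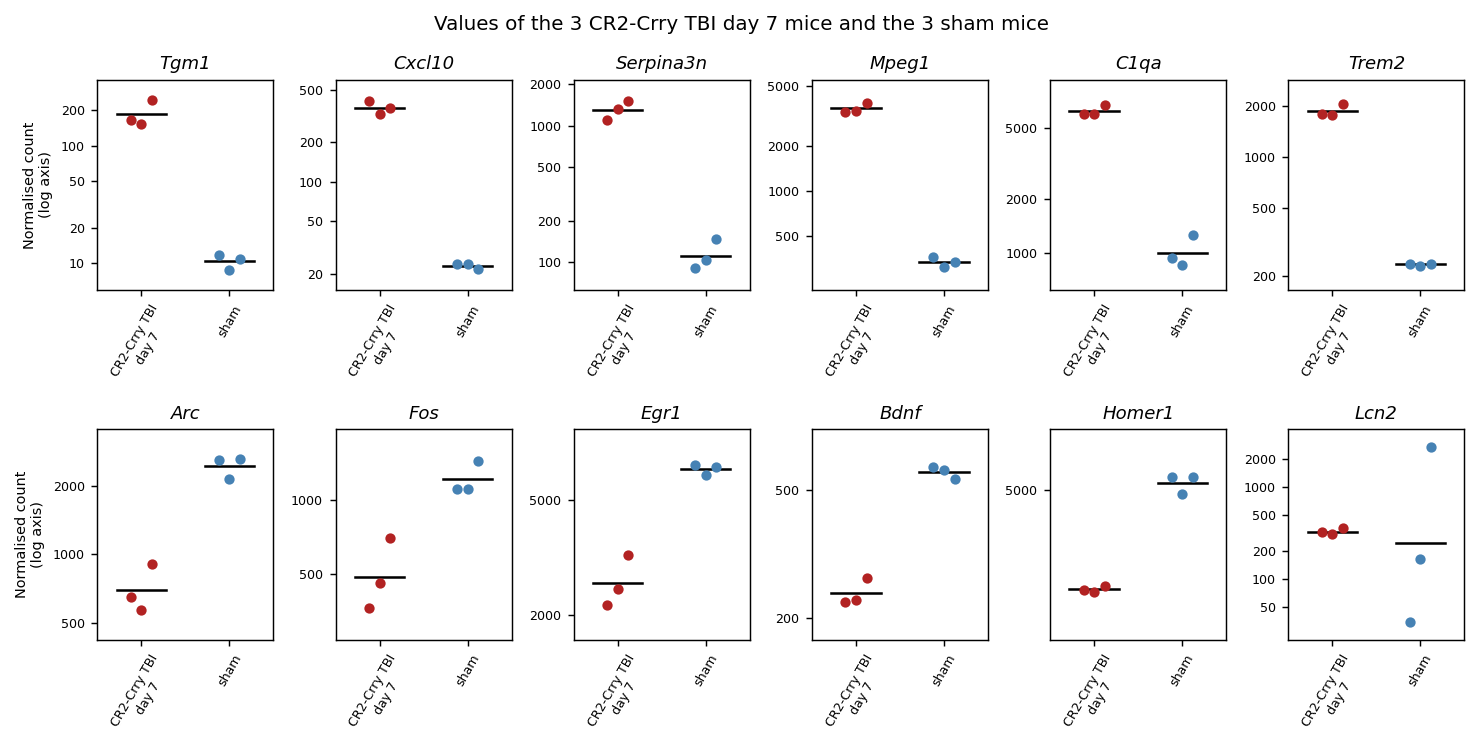
Normalised counts (log axis) of 12 genes in each of the 3 CR2-Crry TBI day 7 mice (left) and the 3 sham mice (right), with bars at the geometric mean. The first 6 genes were higher and the next 5 were lower in CR2-Crry mice with no overlap, while the sham values of Lcn2 run from 34.6 to 2687 and enclose all treated values.

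All 9 complement genes that were matched by name and passed the filter were higher in CR2-Crry-treated injured mice than in sham mice. C1qa, which encodes a chain of C1q, had 5952, 5933 and 6672 normalised counts in CR2-Crry mice against 936, 860.1 and 1259.9 in sham mice, a log2 change of 2.62 (SE 0.14, limma adjusted p = 8.96e-12). The other C1q chains moved likewise, with log2 changes of 2.35 for C1qb and 2.60 for C1qc. C4a, a gene of complement C4 with a near-identical copy in the mouse, had 2296, 2542 and 2529 against 276, 287 and 352. Serping1, the inhibitor of C1, had 348, 407 and 392 against 138, 135 and 127, a log2 change of 1.52. The C1 inhibitor was the least raised of the 5 genes of recognition and regulation, whose median log2 change was 2.60 beside 0.24 over all tested probes.

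Among the receptors, C3ar1, which binds C3a, had 746, 778 and 949 normalised counts in CR2-Crry mice against 88.1, 83.0 and 102 in sham mice, a log2 change of 3.18 (SE 0.16, limma adjusted p = 4.82e-12). C5ar1, which binds C5a, had 155, 151 and 157 against 40.9, 51.6 and 83.7, a log2 change of 1.46 (SE 0.19, limma adjusted p = 1.52e-06). Itgam, the alpha chain of complement receptor 3, had a log2 change of 1.81, and Itgax, that of complement receptor 4, 2.07. The groups did not overlap for any of these receptors, beside 63.8% of all tested probes without overlap. All 9 complement genes were also called higher when samples were centred on their medians. C6, a component of the terminal pathway, did not pass the filter, with a highest value of 15.7 in CR2-Crry mice and 12.6 in sham mice. The paper that reported these data names C3 among the complement genes of this panel, but no probe was matched to it by name. C3 may be among the probes without a gene symbol, and it was not analysed by name here. One such probe, probe_76, lies between C1qc and C3ar1 in the order of the probes. It ranked among the highest above and had a log2 change of 2.86 after centring. Which gene it counts was not tested.

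Microglial genes were raised as a group. All 10 tested genes of homeostatic microglia were higher, with a median log2 change of 1.33, led by Fcrls (2.21), the G protein-coupled receptor Gpr34 (1.83) and the fractalkine receptor Cx3cr1 (1.61), and with the phagocytic receptor Mertk lowest (0.48). Mertk was 1241, 1148 and 1155 in CR2-Crry mice against 782, 759.6 and 1015 in sham mice and was the only one of the 10 not called higher after centring, where its change was -0.079. The summed level of the 10 genes was 13800 to 14570 normalised counts in CR2-Crry mice and 5402 to 5876 in sham mice. In tissue RNA, more cells of a type and more RNA per cell cannot be told apart.

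Genes that microglia induce in disease states had a larger median change, 2.07, with all 9 tested members higher. Trem2, a lipid-sensing receptor, had 1814, 1787 and 2060.1 normalised counts in CR2-Crry mice against 235, 229.9 and 235 in sham mice, a log2 change of 3.01 (SE 0.11, limma adjusted p = 1.3e-13). Tyrobp, the signalling adaptor of Trem2, had 3247, 3306 and 4046 against 496, 492 and 534. Both genes were thus tightly grouped and well apart. The smallest changes in this list were those of the growth factor Igf1 (1.38) and the receptor kinase Axl (1.20), and all 9 remained called higher after centring.

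Of 17 tested genes of Fc receptors and the signalling through tyrosine-based activation motifs, 16 were higher, with a median log2 change of 1.85. Cd84 (2.82) and Fcgr1, the high-affinity receptor for immunoglobulin G (2.49), were among the highest, and the kinase Syk, which relays these receptors, had a log2 change of 1.14. Rac2, a GTPase of blood cells, was 59.6, 62.8 and 68.4 in CR2-Crry mice against 34.6, 45.5 and 37.7 in sham mice, and its call (log2 change 0.70, limma adjusted p = 0.0164) was lost without sham replicate 1 (adjusted p = 0.0638) or without CR2-Crry replicate 3 (adjusted p = 0.0534). Trem1, a receptor of neutrophils and monocytes, was not called (-0.12, SE 0.30), at 8.51 to 11.5 normalised counts in CR2-Crry mice and 9.43 to 13.4 in sham mice.

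Lysosomal and phagocytic genes were mostly higher, 13 of 15 with a median log2 change of 0.75, and 8 of the 15 were called higher and 2 lower after centring. The cysteine protease Ctss had 6914, 6878 and 7214 normalised counts in CR2-Crry mice against 1159.6, 1166 and 1535 in sham mice, a log2 change of 2.46 (SE 0.13, limma adjusted p = 1.05e-11). The scavenger receptor Msr1 (2.38) and Grn, which encodes a lysosomal growth factor precursor (2.25), rose to a similar extent. Of 4 tested genes of antigen presentation, the immunoproteasome subunit Psmb8 (2.47), the thiol reductase Ifi30 (1.84) and Cd74, the invariant chain of MHC class II (1.76), were higher.

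Of 18 genes of the interferon response, 17 were called higher, with a median log2 change of 2.01, and 16 of the 18 stayed called higher after centring. Beside Cxcl10, the transcription factor Irf7, a main amplifier of the type I response, had 338, 299.6 and 332 normalised counts in CR2-Crry mice against 45.6, 62.1 and 40.2 in sham mice, a log2 change of 2.74 (SE 0.19, limma adjusted p = 3.63e-10). Slfn8, which is induced by interferon, had 207, 227 and 246 against 38.5, 44.6 and 32.7, a log2 change of 2.56. The lowest changes in the list were those of Irf1 (1.00), Ifitm2 (0.49, and -0.073 after centring) and Irf3, a transcription factor that is regulated by phosphorylation and not by its level (0.10, not called, and called lower after centring at -0.46).

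The promoters of these genes were read for the interferon-stimulated response element, taken here as GAAA, any 2 bases and GAAA again on either strand, in the 250 bases before and 50 bases after each start site from RefSeq. The letters occurred in 9 of the 16 interferon response genes with an entry (56.2%), in 41 of 555 tested genes (7.39%) and in 1079 of 27025 genes in all (3.99%). The 4 windows below, 60 bases each and all upstream of the start site, show where these letters lie in genes that were higher in CR2-Crry mice, with the motif in capitals and the sequence in the direction of the gene. They come from build GRCm38.p6, with Cxcl10 at chr5:92349068-92349127 on the minus strand, Slfn8 at chr11:83020824-83020883 on the minus strand, Gbp2, a guanylate-binding protein, at chr3:142620579-142620638 on the plus strand, and Oas1g, of the oligoadenylate synthetase family, at chr5:120887614-120887673 on the minus strand.
Cxcl10: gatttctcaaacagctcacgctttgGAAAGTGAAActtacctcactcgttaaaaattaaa
Slfn8: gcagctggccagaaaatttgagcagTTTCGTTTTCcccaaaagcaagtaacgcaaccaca
Gbp2: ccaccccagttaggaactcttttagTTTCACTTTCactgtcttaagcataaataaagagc
Oas1g: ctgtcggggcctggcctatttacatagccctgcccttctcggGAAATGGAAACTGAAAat
In Cxcl10 and Oas1g the letters lie on the gene's own strand, in Oas1g as a pair of overlapping matches next to the start site, and in Slfn8 and Gbp2 they lie on the opposite strand. A match of letters is a description of the sequence and no measure of factor binding.

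Chemokines and cytokines were higher in 12 of 18 cases (66.7%, beside 48% over all tested probes) and lower in 1 (5.6%, beside 10.3%). Their median log2 change was 1.05, and after centring 10 were called higher and 2 lower. Ccl5 had 147, 191 and 106 normalised counts in CR2-Crry mice against 15.7, 12.2 and 8.37 in sham mice, and Ccl3 had 285, 266 and 326 against 18.9, 30.6 and 29.3. Ccl2, the main monocyte chemokine, had 154, 163 and 187 against 25.9, 15.7 and 27.6. The treated mice were more alike for Ccl2 and Ccl3 than for Ccl5. For all of these genes, non-overlap with sham mice was a condition of the ranking above.

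Of 23 receptors for cytokines and chemokines, 16 were higher (69.6%, beside 48% over all tested probes) and 2 lower (8.7%, near 10.3%). Their median log2 change was 0.84. The interleukin-21 receptor Il21r (2.15), the granulocyte colony-stimulating factor receptor Csf3r (1.98) and the interleukin-3 receptor alpha chain Il3ra (1.96) were highest, and Tnfrsf25 and Il1r2 were the 2 lower ones. Centring left 11 of the 23 called higher and 6 lower, with a median of 0.28. Of 21 genes of NF-kB and toll-like receptor signalling, 12 were higher (57.1%, near the 48% over all tested probes) and none lower. Their median log2 change was 0.35 and turned to -0.21 after centring. The RNA-sensing receptor Tlr7 (2.03) followed Tlr2 among them. Cd14, a co-receptor for bacterial lipopolysaccharide, had 131, 163 and 170.0 normalised counts in CR2-Crry mice against 43.2, 34.96 and 147 in sham mice, so that the groups overlapped, and its log2 change of 1.35 became 1.98 without sham replicate 3.

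Markers of blood-derived cells moved unevenly. Of 8 monocyte and macrophage markers, 7 were higher, with a median log2 change of 1.52. Siglec1, an adhesion receptor of macrophages, had 59.6, 71.2 and 72.7 normalised counts in CR2-Crry mice against 18.9, 9.61 and 18.4 in sham mice, a log2 change of 2.18. The summed level of the 8 genes was 1271 to 1482 in CR2-Crry mice and 347 to 491 in sham mice. Microglia share many of these genes, and the part of infiltrating cells in the changes of the myeloid lists was not tested. Csf3r was the only neutrophil marker on the panel.

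Of 16 tested markers of T and natural killer cells, Lag3 and Klrd1 were called higher (12.5%, under the 48% over all tested probes). The median log2 change of the list was 0.24, and it was -0.32 after centring. Lag3 had 598, 571 and 554 normalised counts in CR2-Crry mice against 85.7, 68.2 and 82.0 in sham mice and made up most of the rise in the list's summed level, which was 942 to 1035 in CR2-Crry mice and 425 to 515 in sham mice. Klrd1, a natural killer cell receptor, was low throughout (22.3 to 35.3 in CR2-Crry mice and 14.2 to 17.5 in sham mice), and its call (limma adjusted p = 0.0245) was lost without sham replicate 1 or without CR2-Crry replicates 2 or 3 (adjusted p = 0.0683 to 0.0967). The defining markers Cd8a, Prf1, Gzma and Ncr1 did not pass the filter. Other defining markers were tested and not called, among them the CD3 chain genes Cd3d (0.65), Cd3e (0.14) and Cd3g (0.037). Cd8b1 (-0.32), Nkg7 (0.51) and Gzmb (-0.29) were not called either. Of 6 tested B cell markers, Blnk, an adaptor that myeloid cells also express, was higher (1.31), and Ms4a1, the B cell marker CD20, did not pass the filter.

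Of 7 endothelial and barrier genes, 2 were called higher (28.6%, under the 48% over all tested probes). They were Cldn5, the main claudin of the blood-brain barrier (0.39), and Tie1, a receptor kinase of endothelial cells (0.37). Their changes turned to -0.17 and -0.19 after centring. The call of Cldn5 was lost without CR2-Crry replicate 2 (adjusted p = 0.0837), and that of Tie1 was lost without sham replicate 3 (log2 change 0.22) or without CR2-Crry replicates 1 or 2. The summed level of the 7 genes overlapped, at 2559 to 2944 in CR2-Crry mice and 2569 to 2735 in sham mice. Ttr, a choroid plexus marker, had 2342, 2431 and 2084 normalised counts in CR2-Crry mice against 2406, 3162 and 2152 in sham mice, which overlapped (log2 change -0.15, SE 0.36).

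Reactive astrocyte genes were higher in 7 of 9 cases for the markers common to reactive states, with a median log2 change of 1.39. Vim, the intermediate filament vimentin, had 3594, 3498 and 3926 normalised counts in CR2-Crry mice against 561, 588 and 531 in sham mice, a log2 change of 2.71 (SE 0.13, limma adjusted p = 4.23e-12). Timp1, an inhibitor of matrix metalloproteinases, had 52.1, 60.8 and 72.7 against 13.4, 19.2 and 26.8, a log2 change of 1.69, and the metalloreductase Steap4 had a log2 change of 1.39. After centring 4 of the 9 were called higher and 1 lower, the median was 0.83, and Steap4 lost its call (limma adjusted p = 0.0537). The treated mice lay above all sham mice for Vim and Timp1. The groups did not overlap for 6 of the 9 genes, a share near the 63.8% over all tested probes.

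Lcn2, an iron-binding acute phase protein, behaved differently, with 321, 310.0 and 357 normalised counts in CR2-Crry mice against 34.6, 168 and 2687 in sham mice. The treated values were close together, the sham values lay on both sides of them, and the highest was that of the 16-week-old sham mouse. Its log2 change of 0.40 (SE 1.00, limma adjusted p = 0.746) became 2.11 (adjusted p = 0.0126) without sham replicate 3 and -1.03 (adjusted p = 0.336) without sham replicate 1.

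Of 8 genes named A1, 4 were higher (a share near the 48% over all tested probes, with a median log2 change of 0.61), and of 11 named A2, 9 were higher and 1 lower (median 0.78). Tgm1 and Cd109 (1.504) led the A2 list, and Ptgs2, at 157, 189.6 and 161 normalised counts in CR2-Crry mice against 296, 294 and 421 in sham mice, was its lower member. After centring, 4 higher and 3 lower A1 genes and 5 higher and 2 lower A2 genes were called. Of 9 genes of homeostatic astrocytes, 8 were higher with a median log2 change of 0.63, which was 0.072 after centring, when 3 were called higher and 1 lower. Entpd2, an enzyme that degrades extracellular ATP (1.07), Gja1, the astrocyte gap junction protein (0.76), and S100b (0.74) led this list. Of 11 genes of matrix remodelling, 10 were higher with a median log2 change of 0.76, while after centring 5 were called higher and 1 lower with a median of 0.20. Mmp12 had 109.6, 216 and 199.9 normalised counts in CR2-Crry mice against 13.4, 12.2 and 8.37 in sham mice, a log2 change of 3.92 (SE 0.30, limma adjusted p = 1.56e-09), and Cd44, the hyaluronan receptor, had a log2 change of 0.76 that was 0.20 and not called after centring (limma adjusted p = 0.355).

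Myelin genes were moderately higher relative to the housekeeping genes, 10 of 11 with a median log2 change of 0.46, but the median was -0.10 after centring and none of the 10 was then called higher. Cnp, an enzyme of myelin, had 13685, 12854 and 12854 normalised counts in CR2-Crry mice against 9091, 8203 and 7187 in sham mice, a log2 change of 0.69. Mog (0.68) and Ninj2 (0.71) were close to it, and Fa2h, which makes myelin lipids, was not called (0.24, limma adjusted p = 0.0524).

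Stress, heme and hypoxia genes moved both ways. Of 22, 12 were higher (54.55%, near the 48% over all tested probes) and 6 lower (27.3%, beside 10.3%). Their median log2 change was 0.21. After centring the balance turned, with 3 higher, 13 lower and a median of -0.35. Hmox1, the heme oxygenase that degrades heme, had 312, 369 and 424 normalised counts in CR2-Crry mice against 81.8, 79.5 and 79.5 in sham mice, a log2 change of 2.19 (SE 0.17, limma adjusted p = 1.21e-09). The stress transcription factors Atf3 (2.78) and Nfe2l2 (1.10) rose with it, while Vegfa, the vascular growth factor (-0.45), and Sod2, the mitochondrial superoxide dismutase (-0.24), were lower. Cdkn1a, the cell cycle inhibitor p21, was also called lower at 272, 234 and 359 in CR2-Crry mice against 451, 335 and 592 in sham mice, but the groups overlapped, and the call (limma adjusted p = 0.0078) was lost without sham replicate 3 (adjusted p = 0.0609) or without CR2-Crry replicate 2 (adjusted p = 0.0504).

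Of 16 cell cycle genes, 8 were higher and 1 lower, led by the topoisomerase Top2a, with 160.0, 131 and 161 normalised counts in CR2-Crry mice against 66.8, 43.7 and 42.7 in sham mice, the ribonucleotide reductase subunit Rrm2 (0.94) and the DNA ligase Lig1 (0.72). Of 28 DNA repair genes, 7 were higher (25%, under the 48% over all tested probes) and none lower. The checkpoint kinase Chek2 was highest (0.72). Of 24 apoptosis genes, 12 were higher and 2 lower. Casp4, the inflammatory caspase that senses lipopolysaccharide (1.71), and Casp8, the initiator caspase of death receptors (1.23), followed Bcl2a1a, and the 2 lower ones were Cycs, which encodes cytochrome c (-0.35), and Bok (-0.30). The shares called higher in the cell cycle and apoptosis lists were near the 48% over all tested probes. The medians of the cell cycle, DNA repair and apoptosis lists were 0.39, 0.083 and 0.40, and after centring they were -0.17, -0.48 and -0.16. The calls after centring were 2 higher and 8 lower for cell cycle genes, 0 higher and 22 lower for DNA repair genes, and 3 higher and 11 lower for apoptosis genes.

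Of 49 chromatin regulators, 4 were higher (8.16%, under the 48% over all tested probes) and 9 lower (18.4%, beside 10.3%). Their median log2 change was -0.0016. Their extremes among called genes were the deacetylase Hdac1 (0.47, and -0.095 after centring) and the methyltransferase Setd7 (-0.31). Of 17 autophagy genes, 3 were higher (17.65%) and 2 lower (11.76%), with a median of 0.059. After centring none of these was called higher, and 46 of the 49 chromatin regulators and all 17 autophagy genes were called lower, with medians of -0.56 and -0.50. All 9 ribosomal protein genes were called higher with a median log2 change of only 0.24, led by Rps9 (0.42), and all 9 were called lower after centring, so their direction rests on the scaling alone.

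Neuronal and synaptic genes were lower in 20 of 32 cases (62.5%, against 10.3% lower over all tested probes), and 1 was higher. The median log2 change was -0.23. Homer1, which anchors glutamate receptors, had 2919.7, 2882 and 2989 normalised counts in CR2-Crry mice against 5381, 4889 and 5358 in sham mice, a log2 change of -0.83 (SE 0.088, limma adjusted p = 1.28e-07). Cx3cl1 had 1507, 1452 and 1371 against 2230.4, 2097 and 2218. Both genes were lower in all 3 treated mice than in any sham mouse, which the rule for naming the largest decreases required. Tubb4a, a tubulin that oligodendrocytes also express, was the one higher member (0.27), and it was lower after centring (-0.29), when 31 of the 32 were called lower. The summed level of the 32 genes was 96370 to 111400 in CR2-Crry mice and 119500 to 121400 in sham mice.

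Of the immediate early genes, which neurons switch on within minutes of activity, Arc, Fos and Egr1 were lower and Jun was higher. Creb1, a constitutively expressed transcription factor that drives such genes and stood in the same list of 5, was not called. Fos had 362, 459.8 and 697 normalised counts in CR2-Crry mice against 1105, 1108 and 1441 in sham mice, a log2 change of -1.31 (SE 0.24, limma adjusted p = 8.42e-05). Egr1 had 2175, 2454 and 3232 against 6598, 6087 and 6484, also a log2 change of -1.31. CR2-Crry replicate 3 was the highest treated mouse for Arc, Fos and Egr1 and still lay below every sham mouse. Jun rose by 0.21, a change that turned to -0.35 after centring and whose call was lost without sham replicate 2 (adjusted p = 0.0705) or without CR2-Crry replicates 1 or 2 (adjusted p = 0.0528 for each). The promoters of this list were read for a second motif, the CArG box, taken as CC, 6 bases of A or T, and GG. It occurred in 0 of the 3 genes with an entry, which were Fos, Jun and Creb1. Over the tested genes it occurred in 8 of 555 (1.44%), and over all genes in 488 of 27025 (1.81%).

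**Figure D3:**
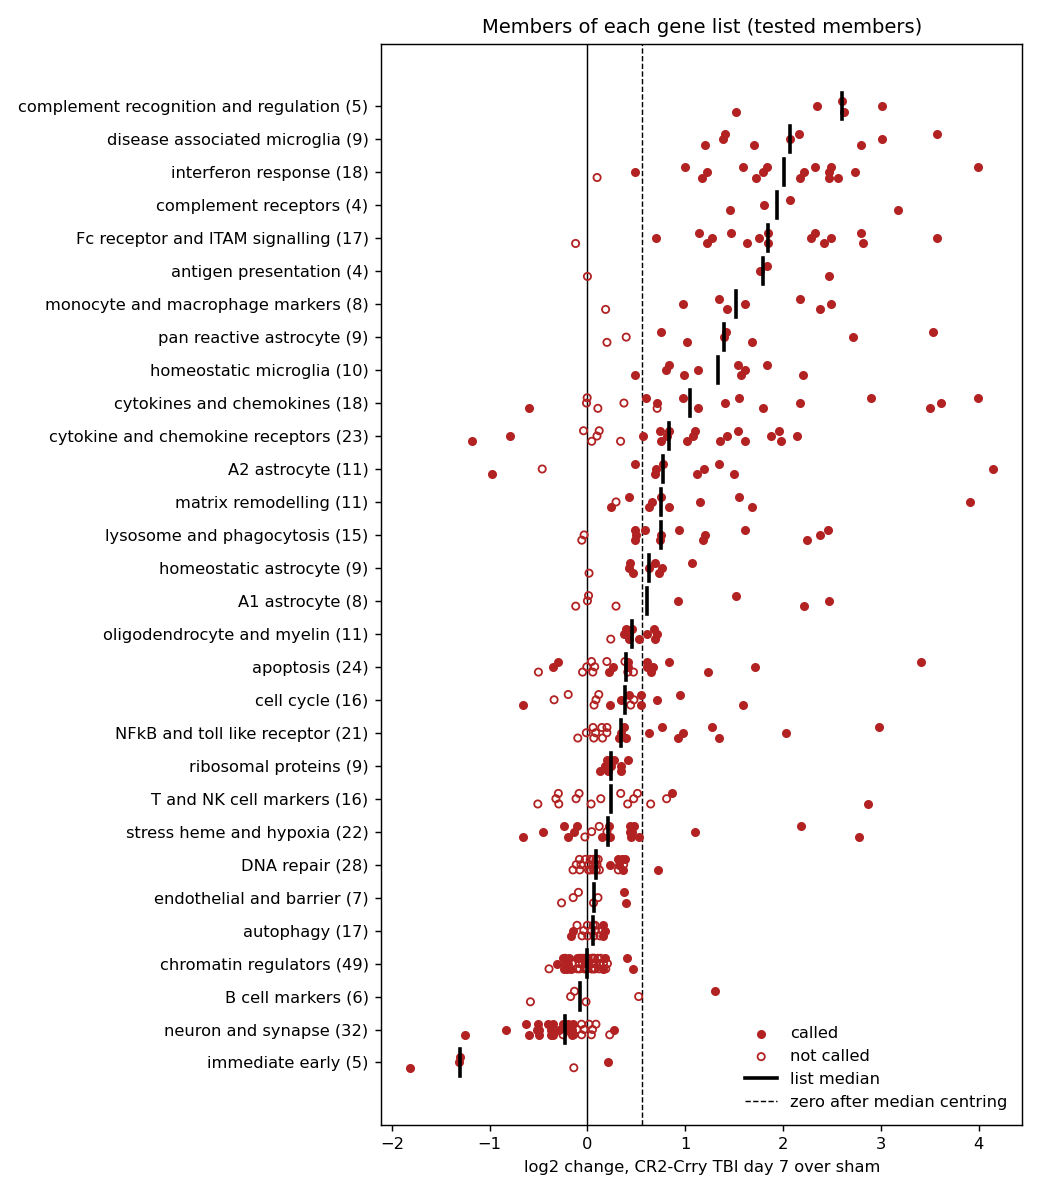
Log2 change of CR2-Crry TBI day 7 over sham for each tested member of 30 gene lists (number of tested members in brackets), with filled points for called genes and bars for the list medians. Genes of complement recognition and regulation have the highest median (2.60) and the immediate early list, which includes Creb1, the lowest (-1.31). The dashed line marks zero after median centring, and lists with medians between 0 and that line, such as myelin, ribosomal and cell cycle genes, change sign with the scaling.

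Set against PBS-treated mice on day 7, which addresses the effect of the drug on the injured brain, the CR2-Crry mice differed for 55 probes (7.43%), with 53 lower (7.16%) and 2 higher (0.27%). Of the 53, 49 were called higher in CR2-Crry mice than in sham mice, so their levels lay between those of PBS and sham mice. Both comparisons share the CR2-Crry samples. The number of calls moved with single mice. It was 86 without PBS replicate 3, 8 without PBS replicate 1, 1 without PBS replicate 2, and 4, 0 and 6 without CR2-Crry replicates 1, 2 and 3. An unadjusted p under 0.05 was reached by 211 probes, and the samples of both groups did not overlap for 248 of the 740 probes. After median centring, which adds 0.17 to each log2 change, 87 probes were called, 63 higher and 24 lower, and 2 higher and 23 lower calls were shared with the uncentred test.

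C4a had 2296, 2542 and 2529 normalised counts in CR2-Crry mice against 3215, 3907 and 3212 in PBS mice, a log2 change of -0.48 (SE 0.13, limma adjusted p = 0.0387). C3ar1 had 746, 778 and 949 against 1431, 1262 and 1021, a log2 change of -0.58 (SE 0.16, limma adjusted p = 0.0383). C5ar1 had 155, 151 and 157 in CR2-Crry mice against 274, 299.6 and 247 in PBS mice, a log2 change of -0.82 (SE 0.19, limma adjusted p = 0.0218). All 3 CR2-Crry mice lay below all 3 PBS mice for these complement genes and far above sham. Each of the 3 calls held in only 1 of the 6 leave-one-out fits. After centring the call of C4a was lost (log2 change -0.32, limma adjusted p = 0.0581), while C3ar1 (-0.41) and C5ar1 (-0.65) kept theirs. The C1q chains were not called, with log2 changes of -0.31 for C1qa (SE 0.14), -0.36 for C1qb (SE 0.14) and -0.35 for C1qc (SE 0.12).

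Among the called probes, the largest decrease was that of probe_652, which has no gene symbol (log2 change -1.36). Its call held in 5 of the 6 leave-one-out fits, more than for any other called probe. The calls of probe_156, probe_454 and probe_610, also lower and without a gene symbol, held in 2, 3 and 3 of these fits. Which genes these probes count was not tested. Among named genes outside complement, Ifi30 had 467, 450.4 and 489.6 normalised counts in CR2-Crry mice against 871, 923 and 725 in PBS mice, a log2 change of -0.83 (SE 0.14, limma adjusted p = 0.0111), and its call held in 4 of the 6 leave-one-out fits. Timp1 had 52.1, 60.8 and 72.7 against 109.6, 194 and 105, a log2 change of -1.09 (SE 0.29, limma adjusted p = 0.0361). Trem1 had 8.51, 11.5 and 9.62 in CR2-Crry mice against 22.8, 17.7 and 19.4 in PBS mice, a log2 change of -1.02 at levels near the filter. The CR2-Crry values were the lower ones throughout, without overlap, a separation that 248 of all 740 probes showed in 1 direction or the other.

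Msr1 (-0.89), Cd74 (-0.88), Lilrb4a (-0.82), Serpina3n (-0.77), Hmox1 (-0.74) and Vim (-0.58) were also lower in CR2-Crry mice than in PBS mice, and Hmox1 stayed called in 2 of the 6 leave-one-out fits and the other 5 in 1. Timp1 stayed called in 1 and Trem1 in none, and the call of Trem1 was also lost after centring (limma adjusted p = 0.0755). Not called were Tgm1 (-0.68, SE 0.27), Cxcl10 (-0.30, SE 0.22), Mmp12 (0.10, SE 0.30) and Arc, which had 647, 569 and 907 in CR2-Crry mice against 246, 366 and 808 in PBS mice (0.73, SE 0.28, limma adjusted p = 0.107, and 0.0454 after centring).

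The 2 genes that were higher in CR2-Crry mice than in PBS mice were Ttr and Bnip3, a mitochondrial protein induced by hypoxia. Ttr had 2342, 2431 and 2084 normalised counts in CR2-Crry mice against 1056, 308 and 1547 in PBS mice, a log2 change of 1.52 (SE 0.36, limma adjusted p = 0.027), while the sham mice had 2406, 3162 and 2152. The difference came with a wide spread among the PBS mice, and the change was 0.84 without PBS replicate 2. The call was lost in 4 of the 6 leave-one-out fits, without PBS replicate 2 and without each of the CR2-Crry replicates. Ttr is made in the brain mainly by the choroid plexus and stood alone for that tissue on the panel, and the part of the dissection in its level was not tested. Bnip3 differed little in size, at 3148, 3159.9 and 3153 against 2723, 2932 and 2965, a log2 change of 0.14 (SE 0.038, limma adjusted p = 0.0387), and its call held in 1 of the 6 leave-one-out fits.

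**Figure D4:**
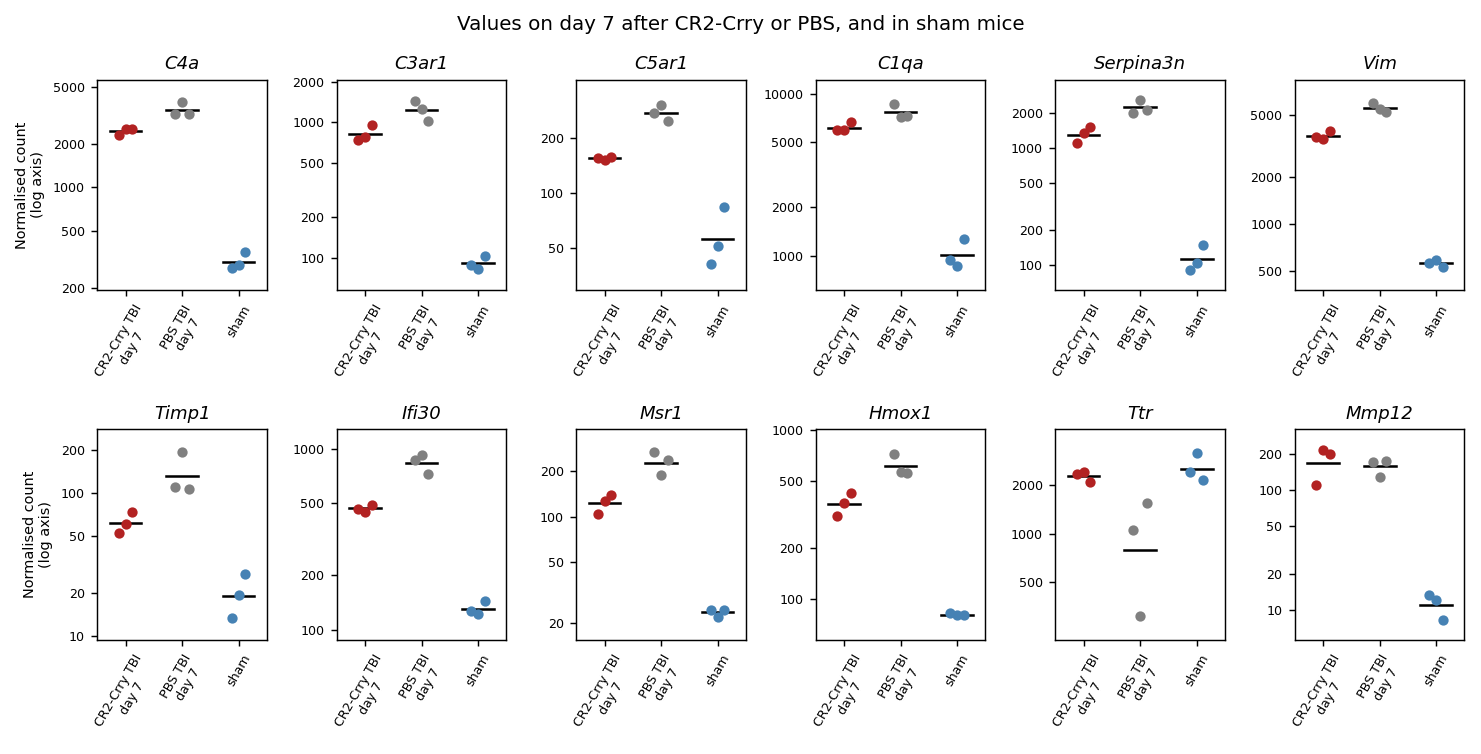
Normalised counts (log axis) of 12 genes in the 3 CR2-Crry TBI day 7 mice (left), the 3 PBS TBI day 7 mice (middle) and the 3 sham mice (right), with bars at the geometric mean. The CR2-Crry values of C4a, C3ar1, C5ar1, Ifi30 and Timp1 lie between the PBS and sham values, Ttr is lowest in PBS mice, and Mmp12 overlaps between both injured groups.

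Within CR2-Crry-treated mice, day 7 differed from day 3 for 141 probes (19.1%), 51 higher (6.89%) and 90 lower (12.2%) on day 7. Centring gave 89 higher and 69 lower. The interferon list held 9 of 18 genes that were higher on day 7 and 2 that were lower, with a median log2 change of 0.63, and the list of disease states of microglia held 5 higher and 1 lower of 9. The cell cycle list held 10 of 16 that were lower and none higher on day 7, with a median of -0.66, and the endothelial list 5 of 7 that were lower. These counts stand beside medians of about zero over all probes (-0.003).

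Ccl5 had 43.9, 27.8 and 40.9 normalised counts on day 3 and 147, 191 and 106 on day 7, a log2 change of 1.96 (SE 0.34, limma adjusted p = 0.000284). Lag3 had 163, 142 and 186 on day 3 and 598, 571 and 554 on day 7, a log2 change of 1.82 (SE 0.13, limma adjusted p = 1.68e-08), and Itgax changed by 1.59. All 3 genes were already called higher than sham on day 3, with log2 changes of 1.65, 1.06 and 0.48.

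In the other direction, Hmox1 had 2331, 2306 and 2982 normalised counts on day 3 and 312, 369 and 424 on day 7, a log2 change of -2.79 (SE 0.17, limma adjusted p = 1.04e-09). Rrm2 had 286, 252 and 339.8 on day 3 and 59.6, 57.6 and 78.0 on day 7, a log2 change of -2.17, and Timp1 changed by -2.15. All day 7 values of these genes lay below all day 3 values, while over the panel 255 of 740 probes had no overlap between these days. The 6 genes named here stayed called in all 6 leave-one-out fits of this comparison.

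From day 7 to day 28, over which CR2-Crry dosing went on and the mice were older, 185 probes differed (25%), 20 higher (2.7%) and 165 lower (22.3%) on day 28. After centring, which adds 0.23, the counts were 255 higher and 76 lower, so the balance of directions rests on the scaling, while the 76 lower calls were shared. The interferon list held 13 of 18 genes that were lower on day 28 with either scaling, and none, or 1 after centring, that were higher. Homeostatic microglial genes were lower in 9 of 10 cases, and in 7 after centring.

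Cxcl10 had 413, 328 and 365 normalised counts on day 7 and 98.2, 92.7 and 103 on day 28, a log2 change of -1.91 (SE 0.22, limma adjusted p = 7.86e-06). Irf7 had 338, 299.6 and 332 on day 7 and 102, 87.2 and 94.0 on day 28, a log2 change of -1.78, and Ccl5 changed by -1.44. On day 28 all 3 genes were still above sham. Il1r2 had 11.7, 15.7 and 16.0 on day 7 and 45.5, 39.7 and 28.7 on day 28, a log2 change of 1.38 (SE 0.23, limma adjusted p = 0.000234), which placed day 7 lowest among sham, day 3, day 7 and day 28.

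Steap4 had 69.1, 77.5 and 48.1 normalised counts on day 7 and 344, 119 and 319.6 on day 28, a log2 change of 1.89 (SE 0.41, limma adjusted p = 0.00231). Lcn2 had 321, 310.0 and 357 on day 7 and 4668, 1063 and 4549.6 on day 28, a log2 change of 3.10 whose call (limma adjusted p = 0.0275) held in 1 of 6 leave-one-out fits. For both genes CR2-Crry replicate 2 was the lowest on day 28.

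**Figure D5:**
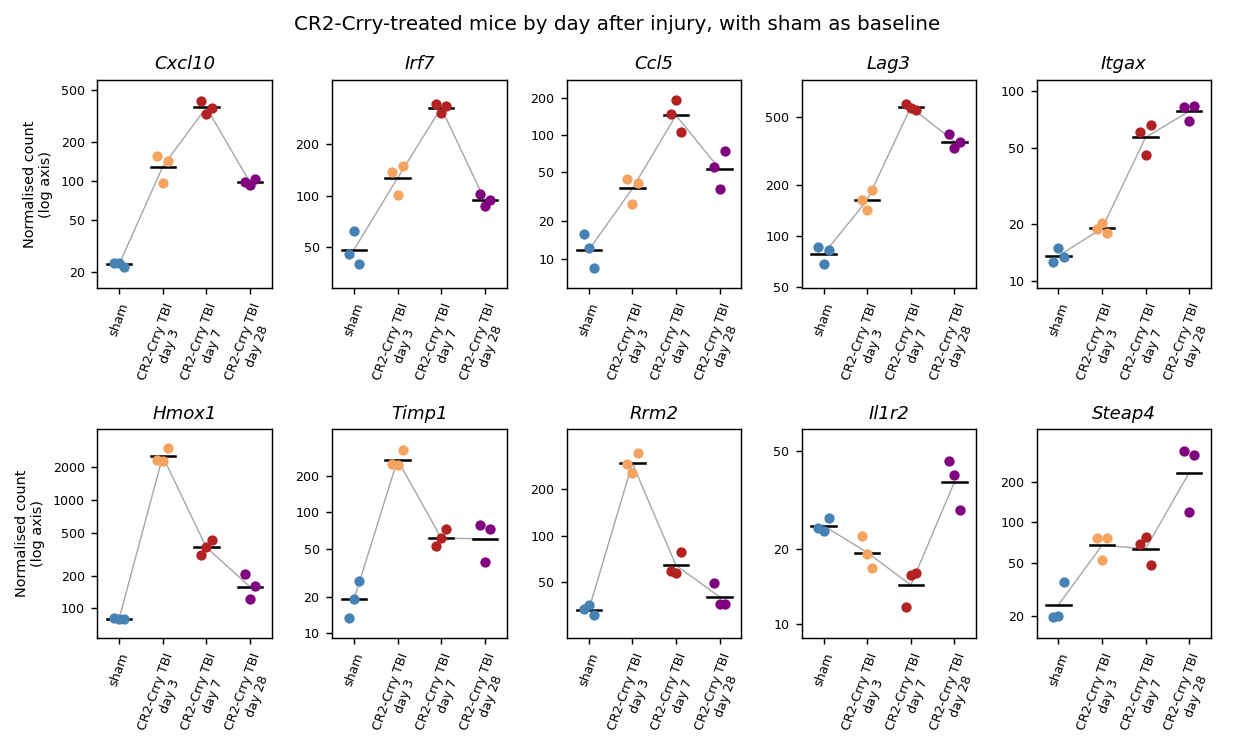
Normalised counts (log axis) of 10 genes in the 3 sham mice and in the 3 CR2-Crry-treated injured mice of day 3, day 7 and day 28, with bars at the geometric mean and lines that join the bars. Cxcl10, Irf7, Ccl5 and Lag3 are highest on day 7, Hmox1, Timp1 and Rrm2 on day 3, and Il1r2 and Steap4 on day 28.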

How the data were processed

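RNA of the injured hemisphere was counted on the NanoString nCounter Mouse Neuroinflammation panel. The deposited values are a signal, namely counts that the authors scaled in nSolver to the geometric mean of housekeeping genes. The methods also name background thresholding, but the deposited values show no repeated floor, with lowest values of 2.14 to 7.71 that occur 1 to 3 times in a sample. They are not raw counts. In each sample at least 99.87% of the values were whole multiples of 1 step (tolerance 0.0075 normalised counts), and the steps were 0.786 to 1.25. Probes were matched to symbols through the platform annotation, which named 703 of 757 and left 54 unnamed, and 17 did not pass the filter. Log2 of each value, without a pseudocount, was fitted in limma 3.58.1 (R 4.3.3) with 1 mean for each of 7 groups over all 21 samples and a mean-variance trend. Contrasts were adjusted by Benjamini-Hochberg over the 740 probes and called at an adjusted p under 0.05. The script was tested on simulated data. Samples came from separate mice. Groups came from the labels. The comparison, the gene lists, the motifs and the tests were chosen with earlier results of these data known. Genes were named by a rule on size of change and non-overlap, plus up to 6 members of each list and all complement and immediate early genes. Lists are described by counts and medians, without a set test. Alternatives covered the scaling, filter, pseudocount, moderation, weights, samples in the fit, pairing and each left-out replicate. With 3 mice per group, precision is limited by the number of mice. Depth enters at low values, where 1 step is a large share of the value.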

Additional observations from a re-analysis of the deposited data

Results flagged for a closer look

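The change over sham was tested directly for a difference between groups, and these comparisons gave 3 results. CR2-Crry and PBS mice differed on day 7 for 55 probes, which means that their changes over the shared sham mice differed. CR2-Crry mice of day 7 differed from those of day 3 for 141 probes, and those of day 28 from those of day 7 for 185 probes. Dixon's rule for a single deviating sample was not applied, since no group held 4 samples.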

How the results depend on the processing

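CR2-Crry TBI day 7 differed from sham for 399 to 418 probes when each replicate was left out in turn (333 to 352 higher, 59 to 80 lower), and the total stayed within 1.5 times of 431 under every alternative run. The exceptions by direction were 172 higher and 385 lower after median centring, 36 lower with an unequal-variance test without moderation, and 41 lower against the sham mouse of the same age alone, where fewer samples entered the fit and the lone sham sample is assumed to vary like the other groups. Against PBS mice, leaving out a replicate gave 0 to 86 calls (0 to 7 higher, 0 to 79 lower). The calls there were 20 without a trend (1 higher, 19 lower), 84 with only the groups of the contrast (82 lower), 141 with sample weights (10 higher, 131 lower), 0 with the unequal-variance test (0 higher, 0 lower, and 211 at an unadjusted limma p under 0.05), 87 after centring (63 higher, 24 lower), 211 when adjusted only over probes with an unadjusted p under 0.05 (17 higher, 194 lower), and 85 with limma voom on recovered counts (82 lower), an alternative chosen after seeing the data. Day 7 against day 3 gave 11 calls with the unequal-variance test (3 higher, 8 lower), 226 when adjusted only over probes with a low p (88 higher, 138 lower), 84 higher with weights and 89 higher after centring, and 110 to 146 calls with a replicate left out. Day 28 against day 7 gave 1 with the unequal-variance test (0 higher, 1 lower), 331 after centring (255 higher, 76 lower), 10 higher with only the groups of the contrast, 44 higher when adjusted only over probes with a low p, and 130 to 182 with a replicate left out. The cause of these shifts was not tested.

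Of 2546 alternative values for the 144 changes named, 2315 kept direction and call, 171 lost the call, 40 gained it and 20 turned direction. Centring turned the change over sham of Mertk (-0.079), Ifitm2 (-0.073), Irf3 (-0.46), Lcn2 (-0.17), Fa2h (-0.32), Tubb4a (-0.29), Jun (-0.35), Cldn5 (-0.17), Tie1 (-0.19), Hdac1 (-0.095) and Rps9 (-0.14). Trem1, not called, turned with weights (0.025) and against the sham mouse of the same age (0.029), and with a replicate left out it ran between -0.24 and 0.043 (the highest without sham replicate 3). Leaving out a replicate gave -1.03 (without sham replicate 1) to 2.11 for Lcn2 and -0.27 to 0.0033 (without sham replicate 2) for Ttr. Against PBS mice, where neither was called, Mmp12 ran between -0.079 (without CR2-Crry replicate 2) and 0.41, below zero also without PBS replicate 2 and without CR2-Crry replicate 3, and Cxcl10 between -0.48 and 0.011 (without PBS replicate 1).

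Same-numbered CR2-Crry day 7 and sham mice deviated together by correlations of 0.00027, 0.041 and 0.053. Same-numbered CR2-Crry and PBS mice did so by 0.092, 0.18 and -0.0029. Differently numbered mice gave -0.13 to 0.10 against sham and -0.15 to 0.061 against PBS. The main fit did not pair mice by number, and whether equal numbers mark a shared cage or run was not tested. With the replicate block, CR2-Crry against sham gave 429 calls (355 higher, 74 lower) and CR2-Crry against PBS gave 20 (1 higher, 19 lower). The edgeR test planned for recovered counts was not run. Low values limit the statements on genes with sham means under 20, among them Tgm1, Mmp12, Ccl5, Tlr2, Siglec1, Itgax, Il21r, Il3ra, Timp1, Klrd1 and Trem1, and on Il1r2 in CR2-Crry mice.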
